A study of Mus musculus with 12 samples.

Results

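The genes described here are the protein-coding members of the gene families that drive the cell cycle and mitosis. They were chosen by gene type and by the start of the gene symbol: the cyclins, the cyclin-dependent kinases and their inhibitors, the numbered Cdc genes, the replication origin and helicase genes (Orc, Mcm), the centromere proteins (Cenp), the kinesins (Kif), the Aurora, Bub and Polo kinases, the type II topoisomerases and Mki67. The table held 55 such genes among 16383 genes, of which 6440 were protein coding. Cdk1, Ccnd2, Ccnd3, Ccna2, Ccnb1, Cdkn1a, Plk1, Aurka, Bub1 and Mcm2 to Mcm7 were not analysed here.

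RNA sequencing of mouse kidney gave 12 libraries in 4 groups of 3: Lrrk2 knockout with ischemia and reperfusion (KO I/R), wild type with ischemia and reperfusion (WT I/R), knockout after sham surgery (KO sham) and wild type after sham surgery (WT sham). Lrrk2 encodes leucine-rich repeat kinase 2. I/R was 30 min without blood flow in the left kidney, with the right one taken out, and sham animals had that surgery with no ischemia, so all groups had lost the other kidney. The sources used here give no age, sex, knockout allele or time of reperfusion, and do not say whether each library came from a separate animal. The p-values therefore measure only the spread between these libraries.

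A cell that leaves rest first makes D-type cyclins, which activate Cdk4 and Cdk6, and then cyclin E, which activates Cdk2 at the end of G1. Origin and helicase proteins mark and unwind the DNA that is copied in S phase. Cyclin B, the Aurora and Polo kinases, the kinetochore and the spindle motors separate the chromosomes in mitosis. Tubular cells of the kidney rarely divide at rest and are known to re-enter the cycle after ischemic injury. Many genes of the last steps carry a CCAAT box and a cell cycle homology region (CHR) in their promoters, while G1 and S phase genes are known for E2F sites.

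Table totals lay between 4678827 and 5456261 counts per library, and the members held 0.307% to 0.475% of them. Lrrk2 itself had 401, 235 and 793 counts in KO I/R, 320, 381 and 464 in WT I/R, 598, 1651 and 207 in KO sham and 2053, 1284 and 1839 in WT sham. The library labelled KO sham 2 lay inside the WT sham range, and the KO I/R and WT I/R ranges overlapped. Whole-gene counts do not show which part was deleted, so the names KO and WT carry the labels only. In KO I/R 2 the counts and the FPKM values did not belong together: 936 genes had an FPKM value above 0 with a count of 0. Reads recovered from its FPKM column were used as an alternative. KO sham 3 had 24.7% of its counts on mitochondrial genes, against 5.64% to 10.7% in the other 11 libraries, and KO sham 1 had 5 counts on the Y chromosome, against 30 to 157.

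Marker genes of kidney cell types moved with I/R. All 5 measured genes of the tubular injury list (Clu, Gdf15, Havcr1, Lcn2, Sox9) were higher after I/R in both genotypes, with summed levels of 21128 to 42772 CPM (counts scaled to library size) in KO I/R and 20843 to 28863 CPM in WT I/R, against 618 to 1335 CPM in KO sham and 945 to 1531 CPM in WT sham. Proximal tubule genes (Aqp1, Gatm, Slc27a2, Slc5a2) summed to 4931 to 9245 CPM in KO I/R and 4275 to 6958 CPM in WT I/R, against 14212 to 20813 CPM in KO sham and 16161 to 23034 CPM in WT sham. Of these 4 genes, 2 were lower in KO and 3 in WT kidneys. Neutrophil genes (Csf3r, Mmp8; 2 of 2 higher in both) summed to 18.5 to 37.5 CPM in KO I/R and 23.6 to 39.4 CPM in WT I/R, against 1.35 to 8.32 CPM in KO sham and 1.38 to 7.01 CPM in WT sham. T cell genes (Cd3g, Cd4, Cd8a) summed to 1.11 to 1.44 CPM in KO I/R and 1.74 to 3.66 CPM in WT I/R, against 5.42 to 16.1 CPM in KO sham and 6.30 to 9.90 CPM in WT sham, with 2 of 3 lower in KO and 1 of 3 in WT kidneys. Of 6 macrophage genes 1 was higher and 2 were lower in each genotype, of 3 collecting duct genes 1 was lower in each, and the 1 tested B cell gene was lower in KO kidneys. Loop and distal tubule genes (Ppp1r1b, Slc8a1, Umod) summed to 5500.4 to 8414 CPM in KO I/R and 7635 to 8716 CPM in WT I/R. In sham kidneys the sums were 7001 to 10294 CPM in KO and 9923 to 11894 CPM in WT. Of these 3 genes, 2 were lower after I/R in each genotype. Fibroblast genes (Col1a1, Pdgfrb) were higher for 1 of 2 in KO and 2 of 2 in WT kidneys. Each listed gene had counts, and podocyte and endothelial markers were not analysed here. Their part in the results below was not tested, and in whole kidney fewer cells of a type and less RNA per cell cannot be told apart.

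The promoters of the members were searched for motifs known from genes of the cell cycle. The RefSeq sequence table of GRCm38.p6 held 48 of the 55 members. For a member the start nearest its annotated gene start was used, which for Kif14 lay 1505 bases away. For all genes the start with the lowest coordinate was used, so the 2 kinds of share rest on differently chosen starts. In the 250 bases upstream of the start, the CHR (TTTGAA, either strand) occurred in 8 of 18 mitosis members, 0 of 6 G1 members and 0 of 5 S phase members, against 16.3% of all 27025 gene starts. The CCAAT box (CCAAT, either strand) occurred in 13 of 18 mitosis members, 3 of 6 G1 members and 3 of 5 S phase members, against 34.2% of all gene starts. E2F sites of the forms TTCCCGC or TTGGCGC (either strand) were found for 4 of 18 mitosis, 2 of 6 G1 and 0 of 5 S phase members, against 5.74% of all gene starts. Other forms of the E2F site were not searched, so the 0 of 5 does not show that S phase members lack such sites. These are matches of letters, not tests of binding. The 150 bases before the start are shown for 4 mitosis genes and for the G1 kinase Cdk4, each in the direction of its gene with matched motifs in capitals. Cenpw, the mitosis member called after I/R in both genotypes, has a CCAAT box and a CHR that overlap by 1 base. Mki67, the common marker of dividing cells, has CCAAT, 2 CHR matches and an E2F site. Top2a and Cdc20 have CCAAT boxes and a CHR close to the start, and the Cdk4 stretch holds none of these motifs, while that of the G1 kinase Cdk2 has a CCAAT box and 2 E2F matches.
Cenpw: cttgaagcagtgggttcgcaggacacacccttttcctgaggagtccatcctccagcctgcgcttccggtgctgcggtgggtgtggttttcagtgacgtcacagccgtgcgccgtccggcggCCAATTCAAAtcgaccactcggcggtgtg
Mki67: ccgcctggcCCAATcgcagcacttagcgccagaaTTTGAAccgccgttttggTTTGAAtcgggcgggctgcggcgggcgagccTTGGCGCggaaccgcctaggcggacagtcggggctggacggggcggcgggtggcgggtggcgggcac
Top2a: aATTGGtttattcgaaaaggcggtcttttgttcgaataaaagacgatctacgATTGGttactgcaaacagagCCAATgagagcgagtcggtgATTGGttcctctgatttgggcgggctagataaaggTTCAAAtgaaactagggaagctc
Cdc20: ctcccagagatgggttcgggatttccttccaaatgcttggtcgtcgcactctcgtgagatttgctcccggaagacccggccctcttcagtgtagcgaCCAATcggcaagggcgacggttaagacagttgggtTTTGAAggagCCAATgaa
Cdk4: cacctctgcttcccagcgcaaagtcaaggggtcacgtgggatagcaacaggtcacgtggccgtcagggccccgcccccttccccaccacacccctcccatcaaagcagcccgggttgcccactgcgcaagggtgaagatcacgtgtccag
The stretches lie at chr10:30200541-30200690, chr7:135716380-135716529, chr11:99024190-99024339 and chr4:118437344-118437493 on the minus strand and at chr10:127063385-127063534 on the plus strand.

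Levels differed widely by role. As mean FPKM over 12 libraries, a unit scaled to gene length, the median was 5.06 for 8 G1 members, 0.366 for 5 S phase members, 0.237 for 20 mitosis members and 2.76 for the 22 members with other functions. The highest were Ccng1 at 35.7, Ccnd1 at 31.5 and Cdc42se1 at 30.3 FPKM, and the ranges of these 3 over the libraries overlapped. Ccng1 encodes cyclin G1, a p53 target, and Cdc42se1 a small effector of the GTPase Cdc42 with no known role as a cyclin partner. Of the 55 members, 47 had enough counts to be tested. The 8 others were Cdkn2a with 6 counts over all libraries, Kif14 with 31, Kif19a with 67, Kif6 with 44, Ccnb1ip1 with 2, Cdc20b with 1, and Ccnb3 and Kif2b with 0. A count of 0 allows up to 3 counts in a library.

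**Figure D1:**
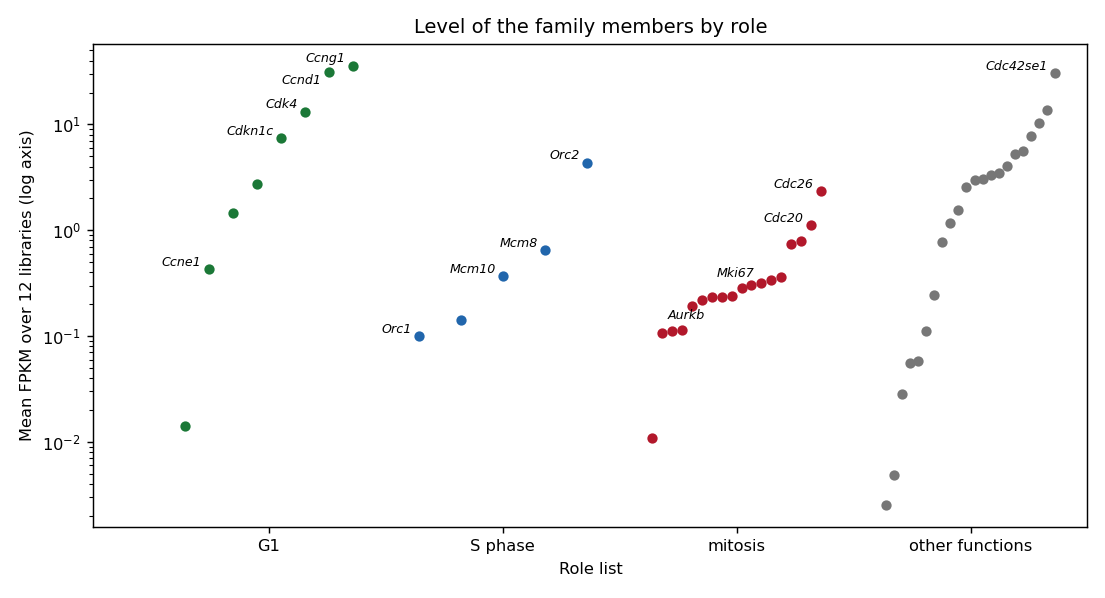
Mean FPKM over the 12 libraries (log axis) of each member with a value above 0, 1 point per gene, in the 4 role lists. The G1 members reach 35.7 FPKM, and the mitosis members reach 2.33 FPKM.

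After I/R, few members passed the test for a change. Aurkb, Ccne1, Cdc42ep5, Cdk4 and Cenpw rose and Ccnd1, Kif13a and Mcm3ap fell in KO kidneys, while Cdc42ep5, Cdk18 and Cenpw rose in WT kidneys. Mki67, the proliferation marker, and Top2a, the topoisomerase of dividing cells, did not pass the test in either genotype. The call was an adjusted p under 0.05 in the quasi-likelihood test of edgeR, adjusted over all 5048 genes tested. For KO I/R against KO sham 8 of 47 members were called, 5 higher and 3 lower, against 23.5% of all genes tested (11.9% higher, 11.5% lower). For WT I/R against WT sham 3 of 47 were called, all higher, against 20.9% of all genes (10.2% higher, 10.7% lower). The share of members called was 17.0% in KO and 6.38% in WT kidneys, below the share of all genes in both. With DESeq2, 8 of 53 members were called in KO (14.3% of all genes) and 6 of 53 in WT kidneys (13.3%). There the KO share was not below that of all genes. The DESeq2 shares were over 9885 genes with no filter on low counts, so they are not comparable with those over 5048 genes. Many members had low counts, with a median total of 601 over the 12 libraries, and the part of this in the shares was not tested. The counts differed between fits, for which the cause was not tested: in the fit of the WT groups alone 13 of 46 members were called, against 41.9% of all genes, and in that of the KO groups alone 1 of 42, against 7.58%. On recovered reads for the second KO I/R library, the counts were 11 in KO (27.3% of all genes) and 8 in WT kidneys (29.4%).

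The median log2 fold change of the members was 0.04 in KO and 0.06 in WT kidneys, against -0.08 and -0.04 over all genes tested. By role, the G1 members had medians of 0.51 in KO and 0.47 in WT kidneys, the S phase members -0.05 and 0.49, and the mitosis members 0.14 and -0.09. The groups did not overlap for 16 members in KO kidneys, 11 higher and 5 lower, against 35.3% of all genes (17.6% and 17.8%), and for 23 members in WT kidneys, 14 higher and 9 lower, against 55.2% of all genes (27.6% in each direction). Without KO sham 3 and KO I/R 2, the calls were 11 members in KO (24.9% of all genes) and 16 in WT kidneys (40.9% of all genes). Without KO sham 1 and KO sham 3 they were 3 (10.3%) and 7 (25.2%).

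**Figure D2:**
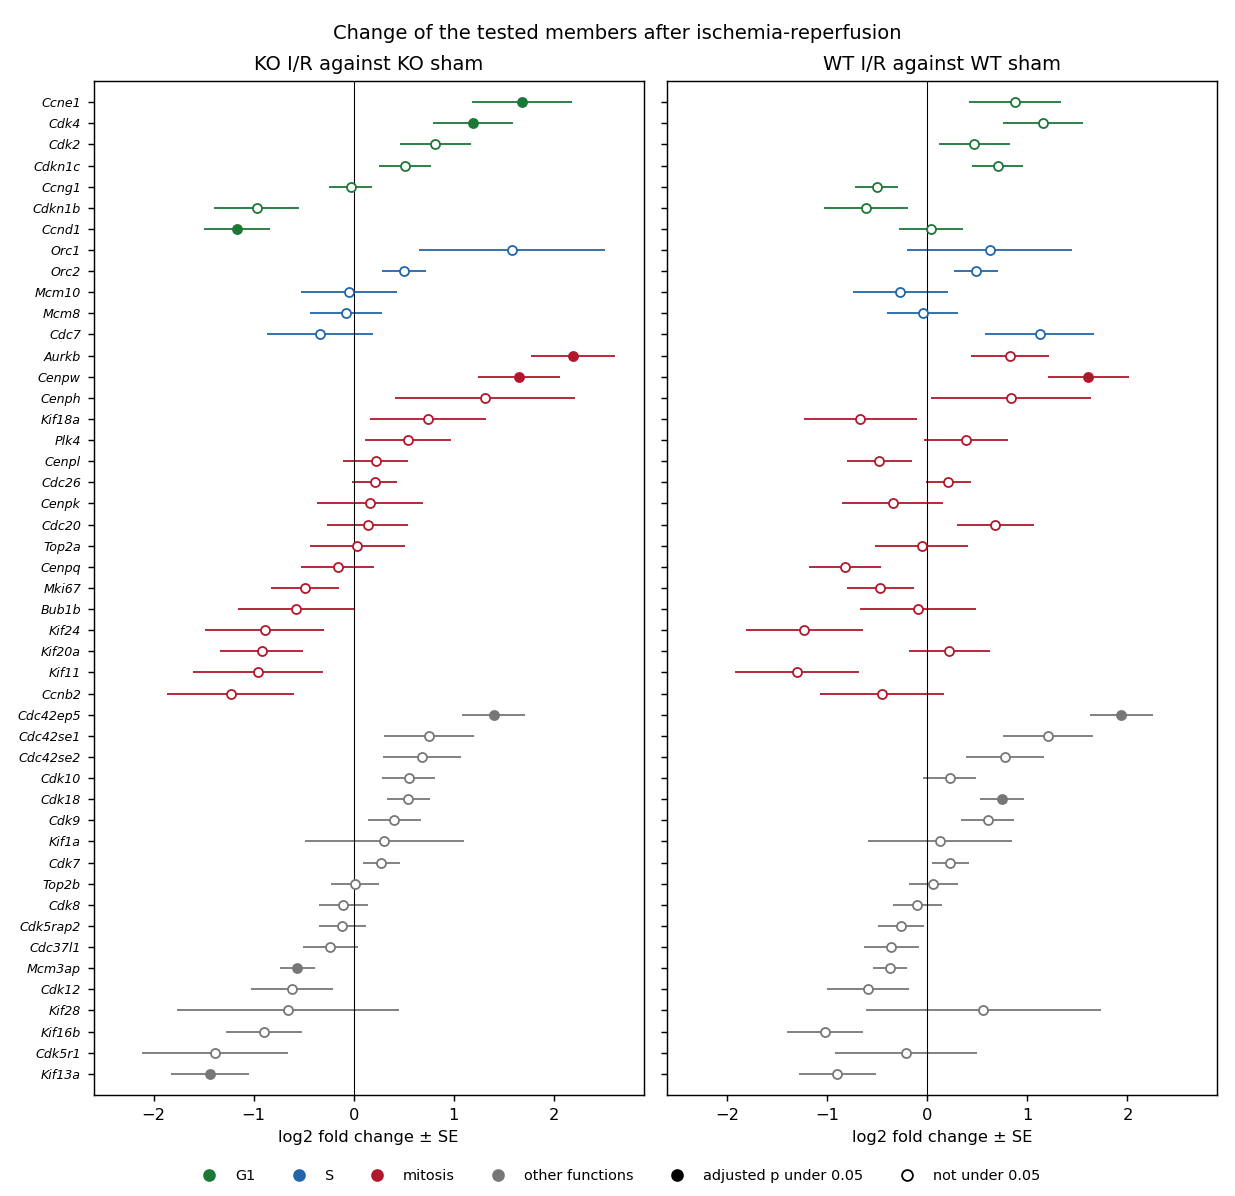
Log2 fold change after I/R with its SE for each tested member, KO I/R against KO sham on the left and WT I/R against WT sham on the right, coloured by role, filled where the adjusted p was under 0.05. The 8 filled points on the left and 3 on the right are the called members, with 2 mitosis members among them on the left and 1 on the right.

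Among the G1 kinases, Cdk4, the partner of the D-type cyclins, had 310.2, 782 and 309 CPM in KO I/R libraries 1 to 3, 402, 332 and 369 CPM in WT I/R libraries, 153, 150.3 and 307 CPM in KO sham libraries and 139, 217 and 139 CPM in WT sham libraries. Every I/R library lay above every sham library of its genotype, but KO I/R 1 and 3 were only just above KO sham 3. The change was 2.29-fold in KO (log2 fold change 1.198 ± 0.40 SE, adjusted p = 0.0481) and 2.22-fold in WT kidneys (log2 fold change 1.15 ± 0.40 SE, adjusted p = 0.0588), and only the KO change was called. The high value of KO I/R 2 was 421 CPM from its FPKM column, and with those reads the adjusted p was 0.0683 in KO kidneys. The KO call also ended when any 1 of 9 libraries was left out, all but KO I/R 1, KO I/R 3 and KO sham 3, with adjusted p between 0.0535 and 0.219. Cdk4 (chr10:127063534-127067920, plus strand) overlaps Tspan31 on the other strand, whose reads cannot be told apart because strand use is unknown.

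Cdk2, the partner of cyclin E, had 82.7, 33.2 and 70.5 CPM in KO I/R libraries 1 to 3, 75.1, 40.05 and 80.1 CPM in WT I/R libraries, 42.3, 30.6 and 33.0 CPM in KO sham libraries and 46.1, 39.6 and 55.3 CPM in WT sham libraries. One I/R library of each genotype, KO I/R 2 and WT I/R 2, lay within its sham range. Its log2 fold change was 0.82 (adjusted p = 0.118) in KO and 0.47 (adjusted p = 0.362) in WT kidneys. KO I/R 2 stood at 69.7 CPM from its FPKM column, with which Cdk2 was called in KO kidneys (adjusted p = 0.0110).

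The cyclins of G1 moved in different directions in KO kidneys. Ccne1, cyclin E1, had 6.48, 6.496 and 4.62 CPM in KO I/R libraries 1 to 3, 7.84, 10.2 and 8.19 CPM in WT I/R libraries, 2.26, 0.774 and 2.41 CPM in KO sham libraries and 2.32, 6.01 and 5.90 CPM in WT sham libraries. All KO I/R libraries exceeded all KO sham libraries, and the same held between the WT groups. Ccne1 rose 3.22-fold in KO kidneys (log2 fold change 1.69 ± 0.50 SE, adjusted p = 0.0300) and had a log2 fold change 0.88 ± 0.46 SE, adjusted p = 0.193 in WT kidneys. The KO sham level was the lowest of the 4 groups, at 1.82 ± 0.906 CPM, against 4.74 ± 2.10 CPM in WT sham (SD, n = 3 each). The call ended without KO I/R 1 (adjusted p = 0.0766), KO I/R 2 (0.0689) or KO sham 2 (0.0902). Ccne1 lies at chr7:38097984-38107534 on the minus strand, with no overlapping gene.

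Ccnd1, cyclin D1, had 279.7, 505 and 413 CPM in KO I/R libraries 1 to 3, 556, 588 and 555 CPM in WT I/R libraries, 717, 658 and 1313 CPM in KO sham libraries and 384, 722 and 550.2 CPM in WT sham libraries. KO sham 3 stood far above the rest, yet the KO I/R libraries were below all KO sham libraries, while the WT groups overlapped. Ccnd1 fell 2.24-fold in KO kidneys (log2 fold change -1.17 ± 0.33 SE, adjusted p = 0.0243), and its log2 fold change in WT kidneys was 0.04 (95% interval -0.67 to 0.74). The call ended without KO sham 3 (adjusted p = 0.0672), KO I/R 1 (0.0898) or KO I/R 3 (0.0507). Ccnd1 (chr7:144929931-144939925, minus strand) overlaps LTO1 on the other strand. Ccng1 had 387, 376 and 522 CPM in KO I/R libraries 1 to 3, 439.8, 443 and 467 CPM in WT I/R libraries, 469.7, 502 and 341 CPM in KO sham libraries and 656, 576 and 688 CPM in WT sham libraries. Its WT I/R libraries lay below all WT sham libraries, while the KO groups overlapped. Its log2 fold change was -0.03 (adjusted p = 0.934) in KO and -0.51 (adjusted p = 0.115) in WT kidneys.

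The inhibitors of the G1 kinases were not called in the main test. In WT kidneys Cdkn1c was called higher in several alternatives, among them recovered reads (adjusted p = 0.0458) and the WT groups alone (0.0313). Cdkn1b was called lower there without KO sham 3 and KO I/R 2 (adjusted p = 0.0454). Cdkn1c, which encodes p57, had 116, 133 and 147 CPM in KO I/R libraries 1 to 3, 193, 133 and 158 CPM in WT I/R libraries, 107, 65.0 and 105 CPM in KO sham libraries and 78.0, 119 and 101 CPM in WT sham libraries. Its I/R libraries were above the sham libraries in both genotypes, with log2 fold changes of 0.51 (adjusted p = 0.167) in KO and 0.70 (adjusted p = 0.0716) in WT kidneys. Cdkn1b, which encodes p27, had 62.7, 15.4 and 51.0 CPM in KO I/R libraries 1 to 3, 52.1, 42.4 and 53.5 CPM in WT I/R libraries, 87.8, 107 and 58.7 CPM in KO sham libraries and 92.1, 54.9 and 80.5 CPM in WT sham libraries. The WT I/R libraries lay below all WT sham libraries, while KO I/R 1 was above KO sham 3. Its log2 fold change was -0.97 (adjusted p = 0.118) in KO and -0.62 (adjusted p = 0.312) in WT kidneys. Cdkn2a, the locus of p16 and p19Arf, had too few counts to compare.

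**Figure D3:**
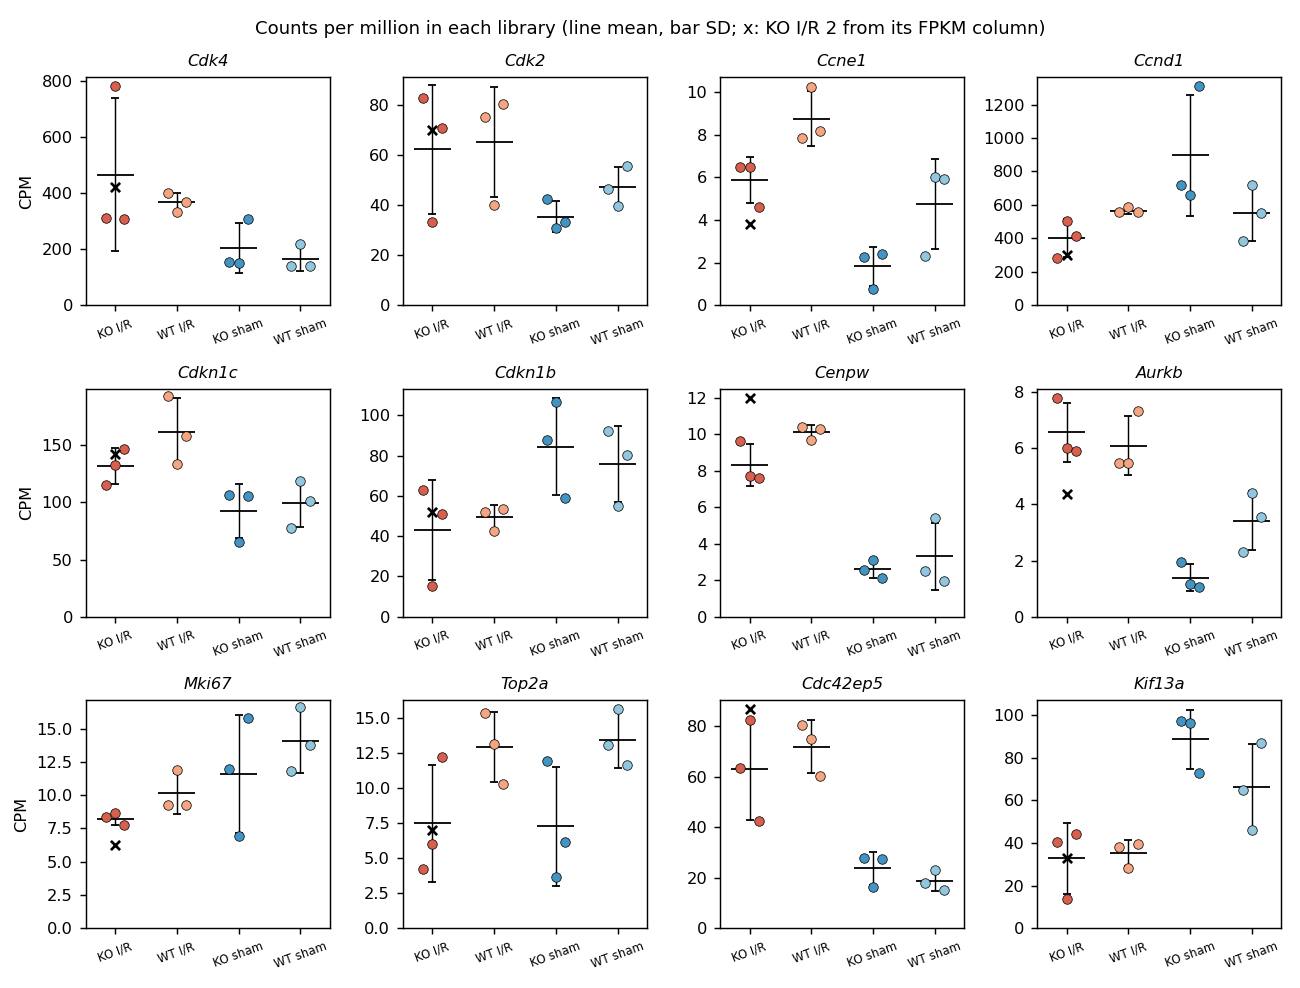
Level in CPM of 12 members in each library, with the mean and SD of the 3 libraries of a group, and a cross for KO I/R 2 as recovered from its FPKM column. Cenpw and Cdc42ep5 lie higher in all I/R libraries than in all sham libraries, while Mki67 and Top2a overlap between I/R and sham in each genotype.

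No S phase member was called in either genotype in the main test. Among the alternatives, Orc2 was called higher in KO kidneys on recovered reads and in the fit of the WT groups alone. Orc2, a subunit of the origin recognition complex, had 72.6, 58.5 and 70.4 CPM in KO I/R libraries 1 to 3, 83.5, 88.7 and 67.4 CPM in WT I/R libraries, 57.6, 46.8 and 37.8 CPM in KO sham libraries and 52.5, 61.3 and 57.1 CPM in WT sham libraries. Its I/R libraries exceeded the sham libraries of the same genotype, with log2 fold changes of 0.50 (adjusted p = 0.121) in KO and 0.49 (adjusted p = 0.133) in WT kidneys. Orc1, the largest subunit, had at most 2.77 CPM and overlapped between the groups in both genotypes, with a log2 fold change of 1.59 (95% interval -0.44 to 3.61) in KO and 0.62 (-1.17 to 2.42) in WT kidneys. Cdc7, the kinase that starts origin firing, had 3.89, 1.203 and 4.62 CPM in KO I/R libraries 1 to 3, 4.56, 3.29 and 6.27 CPM in WT I/R libraries, 4.36, 2.52 and 5.63 CPM in KO sham libraries and 1.90, 1.60 and 2.95 CPM in WT sham libraries. The WT I/R libraries were above all WT sham libraries, while the KO groups overlapped. The log2 fold change of Cdc7 was -0.34 in KO and 1.12 (adjusted p = 0.159) in WT kidneys, where it was called without KO sham 3 and KO I/R 2. Mcm10, which acts as origins unwind, and Mcm8, a helicase of recombination repair, had log2 fold changes between -0.27 and -0.05 in both genotypes.

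Of the 17 tested mitosis members, 2 rose in KO kidneys, 1 rose in WT kidneys and none fell, so that 11.8% were called in KO and 5.88% in WT kidneys, against 23.5% and 20.9% of all genes. Cenpw, a histone-fold protein of the inner kinetochore, had 9.63, 7.70 and 7.57 CPM in KO I/R libraries 1 to 3, 10.4, 9.69 and 10.3 CPM in WT I/R libraries, 2.58, 3.10 and 2.15 CPM in KO sham libraries and 2.53, 5.41 and 1.97 CPM in WT sham libraries. Every I/R library exceeded every sham library, and WT sham 2 was the highest of the sham libraries. Cenpw rose 3.15-fold in KO kidneys (log2 fold change 1.65 ± 0.41 SE, adjusted p = 0.0139) and 3.05-fold in WT kidneys (log2 fold change 1.61 ± 0.40 SE, adjusted p = 0.0156). KO I/R 2 had 11.96 CPM from its FPKM column. The WT call ended without WT I/R 1 (adjusted p = 0.0543), WT sham 1 (0.0644) or WT sham 3 (0.0633), and the KO call without both KO sham 1 and KO sham 3 (adjusted p = 0.150). Cenpw is at chr10:30194569-30200560 on the minus strand, with no overlapping gene.

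Aurkb, the Aurora B kinase of the chromosomal passenger complex, had 7.77, 6.01 and 5.91 CPM in KO I/R libraries 1 to 3, 5.47, 5.49 and 7.32 CPM in WT I/R libraries, 1.94, 1.16 and 1.07 CPM in KO sham libraries and 2.32, 4.41 and 3.54 CPM in WT sham libraries. All I/R libraries exceeded the sham libraries of either genotype, and the KO sham libraries were the lowest. Aurkb rose 4.58-fold in KO kidneys (log2 fold change 2.20 ± 0.42 SE, adjusted p = 0.00421) and had a log2 fold change 0.83 ± 0.39 SE, adjusted p = 0.152 in WT kidneys. It was called in KO kidneys in all 24 alternatives that could test it. The I/R levels of the genotypes, 6.57 ± 1.05 CPM in KO I/R and 6.09 ± 1.06 CPM in WT I/R (SD, n = 3 each), differed by less than their spread. The test of the difference in response gave an interaction of 1.37 (95% interval 0.13 to 2.61, unadjusted p = 0.0332, adjusted p = 0.941). Aurkb lies at chr11:69045647-69051664 on the plus strand, with no overlapping gene. Its counts were low, from 4 to 42 per library.

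Neither common marker of dividing cells passed the test after I/R. Mki67 had 8.33, 8.66 and 7.76 CPM in KO I/R libraries 1 to 3, 9.30, 11.9 and 9.23 CPM in WT I/R libraries, 11.9, 6.97 and 15.8 CPM in KO sham libraries and 11.8, 16.6 and 13.8 CPM in WT sham libraries. Its KO groups overlapped, and of the WT I/R libraries only WT I/R 2 reached the lowest WT sham library. Its log2 fold change was -0.48 (95% interval -1.22 to 0.25) in KO and -0.47 (-1.197 to 0.25) in WT kidneys. Top2a had 4.26, 6.01 and 12.2 CPM in KO I/R libraries 1 to 3, 15.3, 13.2 and 10.3 CPM in WT I/R libraries, 11.9, 3.68 and 6.17 CPM in KO sham libraries and 13.1, 15.6 and 11.6 CPM in WT sham libraries. The libraries of a genotype overlapped between I/R and sham, with log2 fold changes of 0.04 (95% interval -1.003 to 1.08) in KO and -0.06 (-1.07 to 0.95) in WT kidneys. Ccnb2, cyclin B2, had 2.96, 0.722 and 2.77 CPM in KO I/R libraries 1 to 3, 3.83, 3.11 and 1.92 CPM in WT I/R libraries, 3.71, 2.13 and 9.93 CPM in KO sham libraries and 3.79, 5.01 and 3.35 CPM in WT sham libraries. KO sham 3 was the highest library and KO I/R 2 the lowest, but with 3.99 CPM from its FPKM column, and neither change was called (adjusted p = 0.177 in KO and 0.630 in WT kidneys).

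Cdc20, the activator of the anaphase-promoting complex, had 4.26, 7.22 and 3.88 CPM in KO I/R libraries 1 to 3, 14.4, 15.5 and 12.2 CPM in WT I/R libraries, 5.65, 4.06 and 4.02 CPM in KO sham libraries and 4.85, 10.4 and 11.0 CPM in WT sham libraries. The WT I/R libraries were the highest, above all others, and the KO groups overlapped. Its log2 fold change was 0.14 (adjusted p = 0.822) in KO and 0.68 (adjusted p = 0.229) in WT kidneys. Cdc20 overlaps Elovl1 on the other strand. Cdc26, a subunit of the same complex and the highest mitosis member at 2.33 FPKM, had a log2 fold change of 0.21 in KO and 0.21 in WT kidneys. Bub1b, the spindle checkpoint kinase BubR1, had log2 fold changes of -0.58 in KO and -0.09 in WT kidneys, neither called. Plk4, the kinase of centriole duplication, had log2 fold changes of 0.55 in KO and 0.39 in WT kidneys.

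The other centromere proteins had no common direction. Cenph and Cenpk, of one kinetochore subcomplex, had log2 fold changes of 1.32 and 0.16 in KO kidneys, and 0.84 and -0.34 in WT kidneys. Cenpl had 0.22 in KO and -0.48 in WT kidneys. Cenpq had 5.37, 6.26 and 6.65 CPM in KO I/R libraries 1 to 3, 6.01, 8.23 and 9.06 CPM in WT I/R libraries, 6.78, 9.48 and 4.02 CPM in KO sham libraries and 12.9, 11.8 and 16.7 CPM in WT sham libraries. The WT sham libraries were the highest for Cenpq, above all others, with log2 fold changes of -0.16 in KO and -0.83 (adjusted p = 0.119) in WT kidneys. Cenpq overlaps Mut on the other strand, as Cdk2 overlaps Pmel, Orc2 Nif3l1 and Cdc26 Slc31a1. Of the kinesins in the mitosis list, Kif11 keeps the spindle poles apart, Kif20a acts in cytokinesis and Kif24 is a centriolar kinesin. In that order, their log2 fold changes were -0.96, -0.92 and -0.89 in KO kidneys, and -1.31, 0.22 and -1.23 in WT kidneys. None was called in the main test. Kif11 was called lower in WT kidneys when WT I/R 2 was left out. Kif18a, which damps chromosome movement, had 0.74 in KO and -0.67 in WT kidneys.

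Summed over its 20 members, the mitosis list had 142, 155 and 153 CPM in KO I/R, 180.4, 184 and 172 CPM in WT I/R, 160.2, 127 and 125 CPM in KO sham and 159.5, 200.3 and 166 CPM in WT sham. The sums of I/R and sham overlapped in each genotype. The S phase list summed to 94.4, 81.3 and 98.1 CPM in KO I/R, 114, 115 and 99.0 CPM in WT I/R, 80.8, 78.7 and 56.9 CPM in KO sham and 73.5, 96.5 and 88.3 CPM in WT sham. For S phase the I/R sums were above the sham sums in both genotypes, and Orc2 alone made up 58.5 to 88.7 CPM of the I/R sums. The CPM of genes of different length are not compared here.

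Among the other members, Cdc42ep5 rose in both genotypes. Cdc42ep5, an effector that binds the GTPase Cdc42, had 63.5, 82.8 and 42.7 CPM in KO I/R libraries 1 to 3, 80.6, 74.97 and 60.3 CPM in WT I/R libraries, 27.9, 16.3 and 27.4 CPM in KO sham libraries and 17.9, 23.2 and 15.2 CPM in WT sham libraries. All I/R libraries were above all sham libraries. Cdc42ep5 rose 2.64-fold in KO kidneys (log2 fold change 1.40 ± 0.31 SE, adjusted p = 0.00839) and 3.83-fold in WT kidneys (log2 fold change 1.94 ± 0.32 SE, adjusted p = 0.00180). The WT call held in all 26 alternatives, and the KO call in all but the fit of the KO groups alone (adjusted p = 0.0639). Cdc42ep5 is at chr7:4151260-4164860 on the minus strand, with no overlapping gene. Its relatives by name, Cdc42se1 and Cdc42se2, had log2 fold changes of 0.75 and 0.68 in KO kidneys, and 1.21 and 0.77 in WT kidneys, none called in the main test. Among the alternatives, Cdc42se1 was called higher in WT kidneys with DESeq2 and on recovered reads, and Cdc42se2 in KO kidneys on recovered reads.

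Cdk18, a kinase of the PCTAIRE group, had 339, 327 and 280.1 CPM in KO I/R libraries 1 to 3, 333, 281 and 328 CPM in WT I/R libraries, 245, 211 and 191 CPM in KO sham libraries and 176, 238 and 149 CPM in WT sham libraries. Its I/R libraries were above the sham libraries in both genotypes. The change was called in WT kidneys (log2 fold change 0.74 ± 0.22 SE, adjusted p = 0.0317) and not in KO kidneys (log2 fold change 0.55 ± 0.22 SE, adjusted p = 0.0910). The WT call ended without any 1 of WT I/R 1, WT I/R 2, WT I/R 3, WT sham 1 and WT sham 3, with adjusted p between 0.0647 and 0.135. None of the kinases of transcription was called in the main test, but Cdk9 was called higher in both genotypes with limma on FPKM. Cdk7, Cdk8, Cdk9 and Cdk12 had log2 fold changes of 0.28, -0.10, 0.41 and -0.62 in KO kidneys, and 0.23, -0.10, 0.60 and -0.59 in WT kidneys. Top2b, the topoisomerase of non-dividing cells, had 0.01 (95% interval -0.51 to 0.54) in KO and 0.06 (-0.47 to 0.58) in WT kidneys.

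Kif13a, a motor of endosomal transport, had 40.5, 13.7 and 44.1 CPM in KO I/R libraries 1 to 3, 38.3, 28.5 and 39.5 CPM in WT I/R libraries, 97.1, 96.4 and 72.7 CPM in KO sham libraries and 65.1, 46.3 and 87.2 CPM in WT sham libraries. The I/R libraries lay below the sham libraries in both genotypes. Kif13a fell 2.70-fold in KO kidneys (log2 fold change -1.43 ± 0.39 SE, adjusted p = 0.0212), and the WT change was not called (log2 fold change -0.90 ± 0.39 SE, adjusted p = 0.116). The KO call ended without KO sham 1 (adjusted p = 0.0522) or KO sham 2 (0.0555). Kif16b, a motor of early endosomes, had log2 fold changes of -0.89 (adjusted p = 0.112) in KO and -1.03 ± 0.38 SE (adjusted p = 0.0758) in WT kidneys. In WT kidneys Kif16b was called lower with DESeq2 and on recovered reads, and in KO kidneys without KO sham 3. Mcm3ap, a factor of mRNA export named for its binding to Mcm3, had 80.3, 77.5 and 73.1 CPM in KO I/R libraries 1 to 3, 84.4, 71.9 and 79.3 CPM in WT I/R libraries, 112, 117 and 112 CPM in KO sham libraries and 97.3, 103 and 105 CPM in WT sham libraries. The I/R libraries again lay below the sham libraries. Mcm3ap fell 1.48-fold in KO kidneys (log2 fold change -0.56 ± 0.17 SE, adjusted p = 0.0352), but the call ended when any 1 of 11 libraries, all but KO sham 3, was left out, with adjusted p between 0.0516 and 0.0891. Kif13a and Mcm3ap each overlap genes on the other strand, Mcm3ap the gene Ybey.

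Other genes of the same pathway were described from lists by phase, of which 8 of 24 G1 partners, 7 of 38 S phase partners and 15 of 48 mitosis partners were in the table. The lists were drawn up with earlier results of these data known. The shares of all genes given beside them are therefore a description and not a test of any list. Of 7 tested G1 partners, 3 rose in KO and 4 in WT kidneys, against 11.9% and 10.2% of all genes higher, and none fell. Cks1b, a small subunit that binds cyclin-dependent kinases, had 31.5, 34.4 and 34.7 CPM in KO I/R libraries 1 to 3, 31.7, 38.8 and 24.04 CPM in WT I/R libraries, 9.36, 6.58 and 10.2 CPM in KO sham libraries and 6.74, 12.8 and 11.6 CPM in WT sham libraries. All I/R libraries were above all sham libraries, with a log2 fold change 1.94 ± 0.32 SE, adjusted p = 0.00197 in KO and a log2 fold change 1.60 ± 0.31 SE, adjusted p = 0.00471 in WT kidneys. Trp53, the p53 gene, rose by a log2 fold change of 0.68 (adjusted p = 0.0304) in KO and 0.92 (adjusted p = 0.00844) in WT kidneys, and the KO call ended without KO I/R 1, KO I/R 3, KO sham 1 or KO sham 2 (adjusted p between 0.0503 and 0.103). The growth arrest gene Gadd45a rose in both genotypes, with log2 fold changes of 1.48 in KO and 1.86 in WT kidneys. Btg2, another antiproliferative gene, rose in WT kidneys (log2 fold change 2.15) and had 1.32 (adjusted p = 0.0718) in KO kidneys. It was called in KO kidneys in 8 of 26 alternatives, among them DESeq2 (adjusted p = 0.0325), the replicate block (0.0133) and the recovered reads (0.0196), and without KO sham 1 its log2 fold change there was 2.07 (adjusted p = 0.0110).

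Of 7 tested S phase partners, 4 rose in KO and 1 in WT kidneys, against 11.9% and 10.2% of all genes higher, and 0 were called for the interaction of genotype and I/R. All 7 had positive log2 fold changes in both genotypes, against 2338 of 5048 genes in KO and 2441 of 5048 in WT kidneys, and all 7 had negative ones for KO sham against WT sham, none called. Rfc3, a subunit of the clamp loader, had 39.1, 40.4 and 35.6 CPM in KO I/R libraries 1 to 3, 41.6, 46.8 and 33.3 CPM in WT I/R libraries, 13.2, 13.3 and 17.7 CPM in KO sham libraries and 13.7, 23.2 and 18.5 CPM in WT sham libraries. Every I/R library exceeded every sham library, with a log2 fold change 1.38 ± 0.27 SE, adjusted p = 0.00454 in KO and a log2 fold change 1.13 ± 0.27 SE, adjusted p = 0.0117 in WT kidneys, where the call ended without WT I/R 2 (adjusted p = 0.0547). Rpa2, a subunit of the single-strand binding protein, rose in KO kidneys (log2 fold change 1.18 ± 0.26 SE, adjusted p = 0.00839), and its WT log2 fold change was 0.66 (adjusted p = 0.0901). Cdt1, a licensing factor, and Lig1, the replicative ligase, also passed in KO kidneys, with log2 fold changes of 1.82 (adjusted p = 0.0410) and 1.19 (adjusted p = 0.0483). The Cdt1 call ended without any 1 of 9 libraries (adjusted p between 0.0519 and 0.1002) and the Lig1 call without any 1 of 10 (between 0.0534 and 0.123).

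None of the 12 tested mitosis partners was called in either genotype. Their median log2 fold change was -0.32 in KO and -0.09 in WT kidneys. Birc5, survivin, which works in the same complex as Aurora B, had log2 fold changes of 0.15 (adjusted p = 0.828) in KO and 0.42 (adjusted p = 0.509) in WT kidneys. Fzr1, the G1 activator of the anaphase-promoting complex, had 0.70 (adjusted p = 0.0693) and 0.54 (adjusted p = 0.151).

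**Figure D4:**
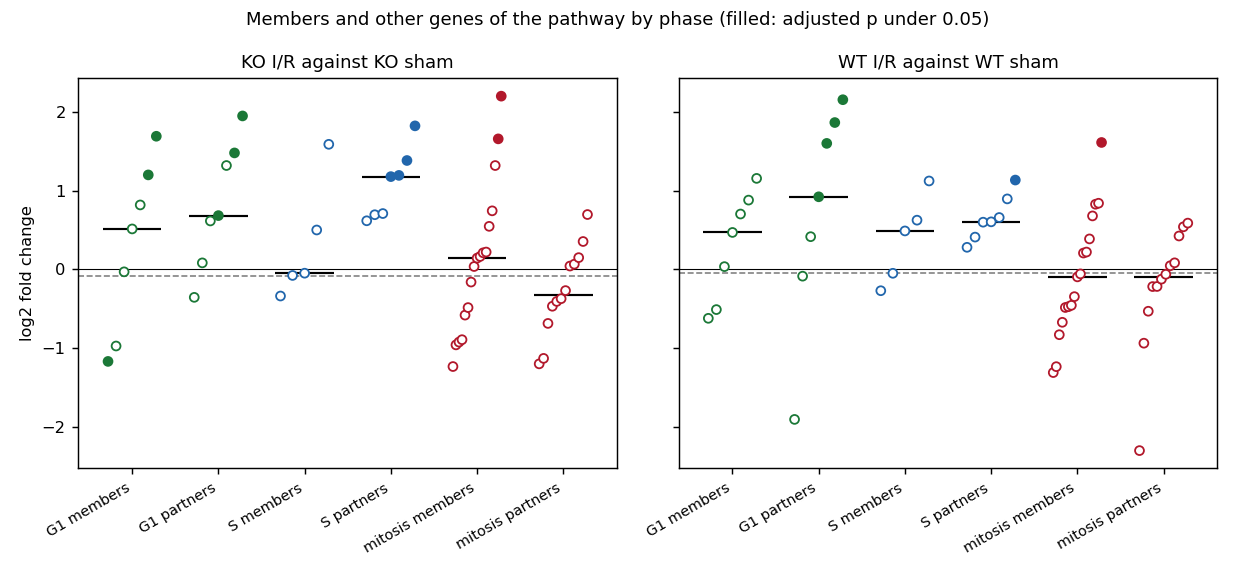
Log2 fold change after I/R of the members and of the other pathway genes by phase, KO on the left and WT on the right, 1 point per gene, filled where the adjusted p was under 0.05. Short lines mark list medians and the dashed line the median of all tested genes, and the S phase partners lie above 0 in both panels.

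The genotypes were compared in sham and in I/R kidneys. For KO sham against WT sham 0 of 47 members were called by edgeR, as were 0% of all genes, and 5 members had an unadjusted p under 0.05, as did 285 of 5048 genes (5.65%). DESeq2 called 0 members, against 22 of 9885 genes. This comparison shares the KO sham libraries with that of KO I/R and KO sham. The 5 members were Aurkb, Ccne1, Ccng1, Cdc20 and Cenpq, each lower in KO sham. Ccne1 had a log2 fold change of -1.39 (unadjusted p = 0.0169), Aurkb -1.26 (0.0119), Cenpq -1.02 (0.0154), Cdc20 -0.93 (0.0385) and Ccng1 -0.55 (0.0259). Between sham groups 5 members did not overlap, 1 higher and 4 lower, against 10.2% of all genes (4.85% and 5.39%). Their median log2 fold change was -0.11, and -0.52 for the mitosis members, against 0.03 over all genes. The S phase members nearest to a call were Cdc7 (log2 fold change 0.94 ± 0.55 SE, adjusted p = 0.817) and Orc1 (log2 fold change -1.29 ± 0.95 SE, adjusted p = 0.875).

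Between KO I/R and WT I/R 0 of 47 members were called, as were 0% of all genes, and 1 member had an unadjusted p under 0.05, as did 140 of 5048 genes (2.77%). DESeq2 called 0 members, against 2 of 9885 genes. That member was Cdc20, at 5.12 ± 1.83 CPM in KO I/R and 14.0 ± 1.70 CPM in WT I/R (SD, n = 3 each), a log2 fold change of -1.46 (95% interval -2.33 to -0.60, unadjusted p = 0.00312, adjusted p close to 1). The groups did not overlap for 7 members, all lower in KO I/R, against 9.43% of all genes (4.54% higher, 4.89% lower). Of the mitosis members 14 of 17 had negative values, with a median of -0.30, against 0.05 over all genes, of which 2844 of 5048 had positive values. On deposited counts, the summed CPM of the mitosis list lay lower in every KO I/R library than in every WT I/R library. The sums were not worked out on recovered reads for KO I/R 2. Ccnd1 (-0.50, unadjusted p = 0.148) and Ccne1 (-0.58, 0.230) were the G1 members nearest to a call, Kif20a (-0.68, 0.124) the second mitosis member, and Orc2 and Cdc7 (-0.25 and -0.52) the S phase members.

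The interaction of genotype and I/R tests whether the response differed between the genotypes. For the interaction 0 of 47 members were called, as were 0% of all genes, and 2 had an unadjusted p under 0.05, as did 265 of 5048 genes (5.25%). DESeq2 called 0 members, against 14 of 9885 genes. Those 2 were Aurkb and Ccnd1, for which the interaction was -1.201 (95% interval -2.20 to -0.20, unadjusted p = 0.0227, adjusted p = 0.938). For Cenpw it was 0.05 (95% interval -1.15 to 1.24), for Cdk4 0.04 (-1.17 to 1.26), for Ccne1 0.81 (-0.66 to 2.27) and for Cdc42ep5 -0.54 (-1.48 to 0.41). For Cdk18 it was -0.20 (-0.87 to 0.47), for Kif13a -0.53 (-1.71 to 0.65) and for Mcm3ap -0.19 (-0.72 to 0.34). A call in one genotype and none in the other is therefore not shown to differ for any member. The S phase members with the smallest p were Cdc7 (-1.46, unadjusted p = 0.0783) and Orc1 (0.96, 0.451).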

How the data were processed

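For each of 12 kidney libraries the deposited table gives, per the file headers, a read count and an FPKM value (fragments scaled to transcript length and library size) per gene. HISAT2 and StringTie are named in the submitters' processing notes. No source used here gives the genome build, counting rule or strand use. All 55 member loci equal those of GENCODE M21 on GRCm38. Total RNA was made into paired-end TruSeq libraries, per the labels' protocols.

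The main test was edgeR 4.0.16 (R 4.3.3), quasi-likelihood, on the deposited counts: TMM factors, filterByExpr (minimum count 10, total 15), all 4 groups in 1 model, and Benjamini-Hochberg adjustment over 5048 genes. CPM values were scaled by TMM-adjusted library sizes, SD is over 3 libraries, and intervals are 95% intervals of the model. Floors of 3 counts cover counting error only. The common dispersion had a square root of 0.375. Whole reads could be recovered for KO I/R 2 out of its FPKM values: all 4105 values under 200 reads lay within 0.05 of a whole number. No 2 libraries of the same group agreed within sampling noise. The scripts were tested on simulated counts.

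Named genes are the called members, a fixed set of well-known ones, the 2 of smallest p in each role where none was called, the 3 of highest FPKM and the called pathway genes; others named fill out a family. The members, lists and this rule were chosen with earlier results of these data known. Alternatives were RLE factors, no or stricter filters, DESeq2 1.42.0, limma 3.58.1 on log2 FPKM (pseudocount 1 or 0.1), the contrast's groups alone, a robust spread, a replicate block, each library left out, recovered reads, and 3 chosen after seeing the data.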

Additional observations from a re-analysis of the deposited data

How the results depend on the processing

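The 8 calls for KO I/R against KO sham became 1 in the fit of those groups alone (7.58% of all genes). Without KO sham 1 and KO sham 3 they were 3 (10.3%), and they ranged from 4 to 9 when 1 library was left out in turn. The 3 calls of 47 members for WT I/R against WT sham were 6 of 53 with DESeq2 (13.3% of 9885 genes). They were 13 of 46 in the fit of those groups alone (41.9%) and 8 with recovered reads in KO I/R 2 (29.4%). With limma on FPKM they were 7 of only 30 tested members, at a pseudocount of 1 and of 0.1. With whole-library totals they were 7 (26.5%), and 1 to 6 when 1 library was left out. Without KO sham 3 and KO I/R 2 they were 16 (40.9%), and without KO sham 1 and KO sham 3 they were 7 (25.2%). Shares of all genes are not given here for limma, the replicate block or single libraries left out. The cause of these differences was not tested. Whole-library totals and both pairs of libraries left out were chosen after seeing the data. The other 3 comparisons gave 0 calls among the members in each alternative run. Of the 23 called changes named, 494 of 596 alternative values kept the call and none changed sign. Of 33 changes not called, 11 were called in at least 1 alternative. The set of names behind these 33 held well-known members, Cdk2, and members or pathway genes called in the other genotype. It therefore depended on the calls, and 11 of 33 is not a rate for the members. Cdk4 in WT kidneys was called in 12 alternatives and Cdk2 in KO kidneys in 6. Members outside that set were also called in some alternatives, among them Cdc42se1, Cdk9, Kif16b, Orc2 and Cenpq in WT kidneys. With whole-library totals the median log2 fold change of all genes was 0.03 in KO and 0.10 in WT kidneys, against -0.08 and -0.04 with TMM, and the calls over all genes were 872 higher and 469 lower in WT, against 517 and 540. Libraries that share a replicate number did not deviate together (correlations of -0.37 to 0.25), and with the replicate number as a block 7 members were called in KO and 3 in WT kidneys, Cdk4 being lost in KO (adjusted p = 0.0779). The 20 mitosis members had a median total of 266 counts over the 12 libraries.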
